A study of Homo sapiens with 10 samples.

Results

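The insulin-like growth factor (IGF) binding proteins and the receptors for insulin and the IGFs were followed by RNA-seq while H1 cells, a line of human embryonic stem cells, were taken towards hepatocytes. The members were chosen by name: IGFBP1 to IGFBP7, IGF1R, INSR and IGF2R. Of these 10 genes, 9 were found among the 12125 genes of the table, 6 of them binding proteins and 3 receptors. IGFBP1 was not analysed here. The course held 10 libraries, 1 for each day sampled, from day 0 to day 21, with no replicate. The library of day 0 was undifferentiated H1 cells on Matrigel in mTeSR1 medium. Activin A at 100 ng per ml was then given for 3 days (libraries of days 1, 2 and 3) in RPMI with the B27 supplement that lacks insulin. The next 4 days (days 5 and 7) had FGF4 at 30 ng per ml and BMP2 at 20 ng per ml, and the following 6 days (days 9, 11 and 13) had HGF and KGF at 20 ng per ml, both steps in RPMI with the complete, insulin-containing B27. Oncostatin M (OSM) at 20 ng per ml was given for the last 8 days in hepatocyte culture medium. The protocol thus ends the HGF and KGF step on day 13, whereas the treatment label of that library is OSM. All libraries came from this cell line, and separate cultures are not stated.

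IGF1, IGF2 and insulin act through the receptor tyrosine kinases IGF1R and INSR, which recruit IRS proteins and switch on PI3K and AKT. IGF2R, the mannose 6-phosphate receptor, has no kinase: it carries IGF2 and newly made lysosomal enzymes to the lysosome. The IGF binding proteins are secreted. They hold IGFs in plasma and in the pericellular matrix, lengthen their life and limit their access to IGF1R, until proteases such as PAPPA release the ligand. Fetal liver is a known source of IGF2 and adult liver of circulating IGF1, and in adult liver the cells that make IGFBP3 are mainly not the hepatocytes.

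The values are whole numbers that the authors normalized for GC content. They are scores on a scale shared by the libraries and not read counts, and no counting interval is given. The depth of single libraries is thus unknown, and the authors state only an average depth. The totals of the libraries differed by at most 1.36%. Values of 2020 or more lay in 11 narrow levels, with 9 or 10 genes at each level in each library. Of the members, IGFBP3 was the gene that reached these levels. Lower values repeat between libraries too (IGF2R was at 1002 on days 5 and 11), and equal values on different days are equal places on the shared scale. The pluripotency gene POU5F1 was at 4861 on day 0 and 5 on day 21, SOX17 of the endoderm at 790 on day 3, and ALB of the hepatocyte at 4866 on day 21. To gauge the variation from library to library, days 9 and 11, both in HGF and KGF medium, were set against each other over all genes. The standard deviation (SD) of their log2(value + 1) differences was 1.10 for genes with a mean value under 20, 0.49 from 20 to 50, 0.40 from 50 to 100, 0.32 from 100 to 200 and 0.28 from 200 to 500. It also holds any true change between these days. Differences below are of log2(value + 1), later day minus earlier day, which compresses the change of genes with low values. A gene was called higher or lower over a step where this difference was 1 or more and the larger value 50 or more. No difference has a replicate check or a p-value. Values of different genes were not divided by transcript length, and levels are compared within a gene only, apart from the sums of marker genes.

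The binding proteins differed widely over the course and the receptors little. The range of log2(value + 1) over the 10 libraries had a median of 7.13 over the 6 binding proteins, 1.43 over the 3 receptors and 1.70 over all 12125 genes. IGFBP5 (9.18) and IGFBP3 (8.58) had the widest ranges of the members, and 0.734% and 1.05% of all genes had a range at least as wide. IGFBP7 (7.60) and IGFBP6 (6.66) followed, with 2.11% and 3.85% of genes at or above them. IGFBP2 had a range of 3.63, which 17.7% of genes reached, and IGFBP4 a range of 2.22, which 35.9% reached. The ranges of IGF2R (1.52), INSR (1.43) and IGF1R (1.35) were reached by 56.1%, 59.8% and 63.4% of all genes.

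The start regions of these genes are shown because wide-ranging binding proteins and narrow-ranging receptors can be set side by side at the level of sequence. RefSeq (GRCh38.p14) gave 10 start regions, matched by symbol, for the 10 members listed, 3 of them for IGFBP2 and none for IGFBP1 and IGFBP7. The 250 bases upstream of the start of IGFBP3, IGFBP5, IGFBP6 and INSR are printed 5′ to 3′ on the strand of the gene. Capitals mark the GC box GGGCGG (the reverse complement CCGCCC included), the TATA motif TATAAA and the motif CCAAT on either strand, and adjoining GC boxes may share bases.
IGFBP3, chr7:45921273-45921522, minus strand: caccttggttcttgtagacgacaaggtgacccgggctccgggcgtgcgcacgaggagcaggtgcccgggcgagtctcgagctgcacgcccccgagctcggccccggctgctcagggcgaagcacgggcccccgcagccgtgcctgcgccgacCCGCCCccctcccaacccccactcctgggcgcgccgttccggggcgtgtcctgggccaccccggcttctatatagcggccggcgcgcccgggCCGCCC
IGFBP5, chr2:216695550-216695799, minus strand: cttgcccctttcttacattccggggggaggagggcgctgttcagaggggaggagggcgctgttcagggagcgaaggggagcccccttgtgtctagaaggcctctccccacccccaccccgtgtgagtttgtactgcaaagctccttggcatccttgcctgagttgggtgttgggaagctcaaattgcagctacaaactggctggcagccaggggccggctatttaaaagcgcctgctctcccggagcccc
IGFBP6, chr12:53097417-53097666, plus strand: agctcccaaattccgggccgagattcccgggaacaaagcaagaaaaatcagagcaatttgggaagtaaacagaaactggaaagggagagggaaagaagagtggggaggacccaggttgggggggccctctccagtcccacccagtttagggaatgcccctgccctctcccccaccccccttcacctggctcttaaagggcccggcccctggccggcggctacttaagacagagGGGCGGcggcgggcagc
INSR, chr19:7294415-7294664, minus strand: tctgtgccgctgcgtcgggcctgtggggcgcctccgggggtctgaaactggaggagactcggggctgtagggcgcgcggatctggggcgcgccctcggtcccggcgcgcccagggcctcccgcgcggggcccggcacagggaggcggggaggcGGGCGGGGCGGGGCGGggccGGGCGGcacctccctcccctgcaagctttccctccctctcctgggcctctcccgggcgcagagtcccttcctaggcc
INSR held 4 GC boxes, IGFBP3 held 2 and IGFBP6 held 1, and IGFBP5 had no match to any of the 3 motifs. Of 35116 start regions of this length in RefSeq, 42.6% held a GC box, 10.7% the TATA motif and 32% the third motif. The TATA motif was found in 1 member, IGFBP4, where it began 29 bases upstream of the start. Only the exact letters TATAAA were searched, so variants of this motif in the other windows were not counted. CpG dinucleotides numbered 32 in the IGFBP3 window, 28 in that of INSR, 33 in that of IGF2R and 48 in that of IGF1R, 24 in that of IGFBP4, 22, 7 and 4 in those of IGFBP2, 8 for IGFBP5 and 9 for IGFBP6, and the median over all start regions was 11. As many CpGs as IGF1R were found in 0.262% of start regions. All 3 receptors were thus above this median, as were IGFBP3, IGFBP4 and 1 window of IGFBP2. These matches describe the letters of the windows, and no binding was measured.

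IGFBP2, which binds IGF2 strongly and is abundant in fetal tissues and stem cells, had its highest value in the undifferentiated cells. The table gives it as ENSG00000115457 on the plus strand of chromosome 2 from 217497551 to 217526640. The submitters' processing notes name the builds hg19 and mm10, the table itself names none, and its intervals are not on the GRCh38 positions printed above. The value of IGFBP2 was 1736 on day 0, 422 on day 1, 434 on day 2, 322 on day 3, 299 on day 5, 139 on day 7, 141 on day 9, 174 on day 11, 226 on day 13 and 284 on day 21. It stood alone on day 0, was lower by the first day of Activin A (a log2 difference of -2.04, with an SD of 0.28 for genes of this level between days 9 and 11), and was lowest on days 7 and 9. It was called lower over the Activin A step (-2.43) and again over the FGF4 and BMP2 step (-1.21). The later values, from 139 to 284, were 0.70 higher on the log2 scale on day 13 than on day 7 and did not meet the call.

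IGFBP5, a binding protein that attaches to extracellular matrix, lies beside IGFBP2 on chromosome 2, from 217536828 to 217560248 on the opposite strand (ENSG00000115461), so that the 3′ ends face each other across 10187 bases. Its value was 16 on day 0, 1 on day 1, 4 on day 2, 21 on day 3, 360 on day 5, 325 on day 7, 155 on day 9, 58 on day 11, 31 on day 13 and 1158 on day 21. It thus had 2 separate highs, on days 5 and 7 and on day 21, with a decline through all 3 HGF and KGF libraries between them. The log2 difference was 3.89 from day 3 to day 7, -3.35 from day 7 to day 13 and 5.18 from day 13 to day 21, each of them called. The day 13 to day 21 difference was the largest of any member over any of the 4 steps. The neighbours IGFBP2 and IGFBP5 were called in opposite directions from day 3 to day 7, and IGFBP2 was not called over the later steps.

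IGFBP6, which prefers IGF2 to IGF1 as a ligand, had a single high in the middle of the course. The table gives it as ENSG00000167779 on the plus strand of chromosome 12 from 53491220 to 53496129. Its value was 12 on day 0, 9 on day 1, 24 on day 2, 91 on day 3, 434 on day 5, 604 on day 7, 366 on day 9, 270 on day 11, 57 on day 13 and 5 on day 21. The values of days 5 to 11 were all above those of the other days. It was called higher over the Activin A step (2.82) and over the FGF4 and BMP2 step (2.72), and lower over the HGF and KGF step (-3.38) and over the OSM step (-3.27). It was the only member called over all 4 steps. From day 3 to day 7 IGFBP5 and IGFBP6 were both called higher and from day 7 to day 13 both lower, but over the OSM step they were called in opposite directions.

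IGFBP3, the main carrier of IGFs in plasma, where it forms a complex with the acid-labile subunit, was low until day 3 and then higher at each library up to day 11. It is listed as ENSG00000146674 on chromosome 7, minus strand, from 45951951 to 45960873. Its value was 18 on day 0, 16 on day 1, 40 on day 2, 29 on day 3, 172 on day 5, 634 on day 7, 2969 on day 9, 6495 on days 11 and 13, and 4858 on day 21. The first 4 libraries did not overlap the other 6. The log2 difference was 4.40 over the FGF4 and BMP2 step and 3.35 over the HGF and KGF step, and -0.42 over the OSM step, where 6495 and 4858 are neighbouring shared levels of the scale.

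IGFBP7, which binds IGFs weakly and is a matrix-associated protein of vessels and stroma, is listed as ENSG00000163453 on chromosome 4, minus strand, from 57896939 to 57976551. Its value was 2 on day 0, 13 on day 1, 1 on day 2, 6 on day 3, 32 on day 5, 22 on day 7, 270 on day 9, 289 on day 11, 386 on day 13 and 342 on day 21. The step lay between days 7 and 9, at the change to HGF and KGF, with a log2 difference of 3.56, and days 9 to 21 then stayed within 270 to 386. IGFBP3 and IGFBP7 were therefore both high from day 9 on, but IGFBP3 had already been called higher from day 3 to day 5 (2.53), when IGFBP7 was at 32 and did not meet the call.

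IGFBP4, a substrate of PAPPA and an inhibitor of IGF action, had no single high. It is listed as ENSG00000141753 on the plus strand of chromosome 17 from 38599713 to 38613983. Its value was 306 on day 0, 362 on day 1, 201 on day 2, 167 on day 3, 686 on day 5, 360 on day 7, 518 on day 9, 660 on day 11, 781 on day 13 and 370 on day 21. It was lowest at the end of the Activin A step and 2.03 higher on the log2 scale on day 5, with -0.93 from day 5 to day 7 within the same medium. Over the whole course, from day 0 to day 21, the difference was 0.27.

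**Figure D1:**
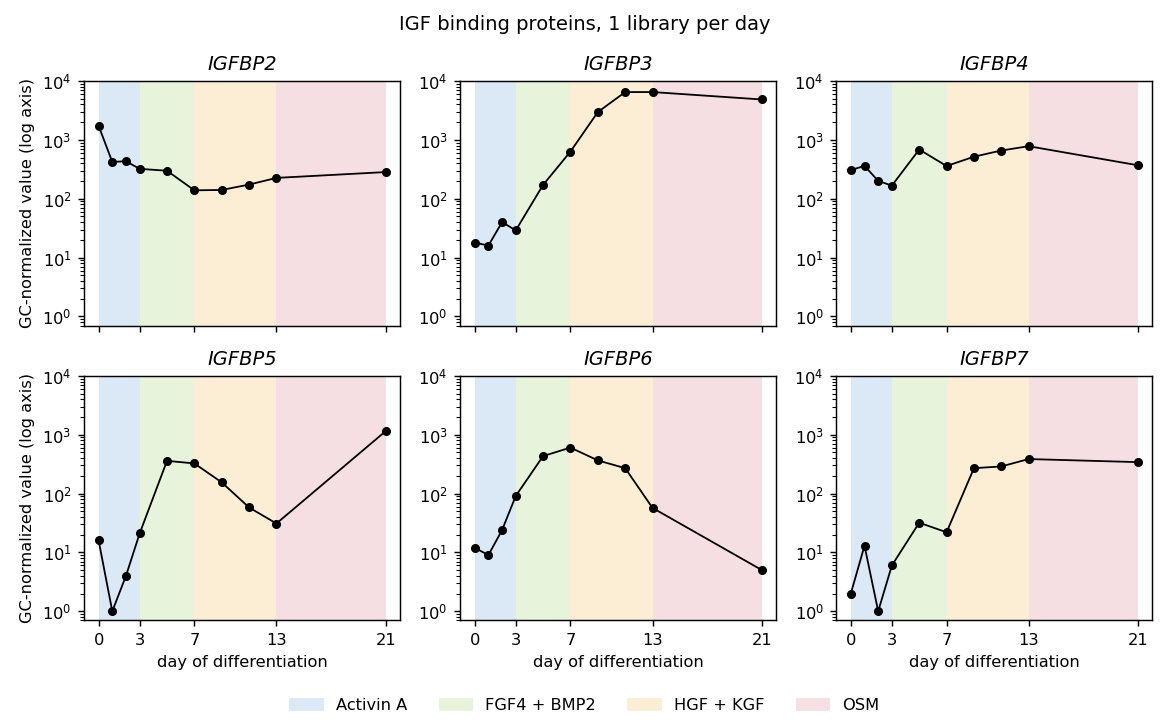
GC-normalized value (log axis) of the 6 IGF binding proteins found against the day of differentiation, 1 point per library, with the background coloured by the step of the protocol. IGFBP2 is highest on day 0, IGFBP6 on day 7, IGFBP3 on days 11 and 13, IGFBP4 and IGFBP7 on day 13, and IGFBP5 on day 21 after an earlier high on day 5.

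The receptors were present in every library. IGF1R, the receptor kinase for IGF1 and IGF2, is listed as ENSG00000140443 on the plus strand of chromosome 15 from 99192200 to 99507759. Its value was 332 on day 0, 456 on day 1, 332 on day 2, 355 on day 3, 222 on day 5, 340 on day 7, 508 on day 9, 566 on day 11, 452 on day 13 and 530 on day 21. It was lowest on day 5 and above all values of the first 6 libraries on days 9, 11 and 21, but it was called over none of the 4 steps. With the libraries ordered by the value of IGF1R, 7 of the 9 pairs of neighbours in that order differed by no more than the SD of days 9 and 11 at their level.

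INSR, the insulin receptor, is listed as ENSG00000171105 on chromosome 19, minus strand, from 7112266 to 7294011. Its value was 86 on day 0, 106 on day 1, 78 on day 2, 92 on day 3, 76 on day 5, 98 on day 7, 122 on day 9, 159 on day 11, 171 on day 13 and 206 on day 21. From day 5 each library was higher than the one before it, in steps of 0.10 to 0.38 on the log2 scale, beside an SD of 0.32 to 0.40 between days 9 and 11 at these levels. INSR was called higher on day 21 than on day 0 (1.25) though over no single step, and the difference from day 7 to day 13 was 0.80. In the order of its values, 8 of the 9 neighbouring pairs lay within the SD. Gene-level values do not separate the A and B isoforms of INSR, which differ in their affinity for IGF2.

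IGF2R, which clears IGF2 by taking it to the lysosome, is listed as ENSG00000197081 on the plus strand of chromosome 6 from 160390131 to 160527583. Its value was 494 on day 0, 422 on day 1, 546 on day 2, 790 on day 3, 1002 on day 5, 958 on day 7, 891 on day 9, 1002 on day 11, 854 on day 13 and 1216 on day 21. It was lowest in the first 3 libraries, near a plateau of 790 to 1002 from day 3 to day 13 and highest on day 21. Its log2 difference was 0.68 over the Activin A step and 0.51 over the OSM step, both short of the call, and 1.30 from day 0 to day 21, which met it.

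Over the 4 steps, counts of members called were read against all genes with a larger value of at least 50. Over the Activin A step, 1 of the 9 members was called higher (IGFBP6) and 1 lower (IGFBP2), where 11.1% and 9.07% of 8934 genes were called. Over the FGF4 and BMP2 step 4 were higher (IGFBP3, IGFBP4, IGFBP5 and IGFBP6) and 1 lower (IGFBP2), against 13.2% and 12.8% of 9100 genes. Over the HGF and KGF step 3 were higher (IGFBP3, IGFBP4 and IGFBP7) and 2 lower (IGFBP5 and IGFBP6), against 9.65% and 8.21% of 8892 genes. Over the OSM step 1 was higher (IGFBP5) and 2 lower (IGFBP4 and IGFBP6), against 8.57% and 9.08% of 8786 genes. The larger value was under 50 for 3 members over the Activin A step (IGFBP3, IGFBP5 and IGFBP7) and for 1 over the FGF4 and BMP2 step (IGFBP7), so these could not be called there. Every call over a step was of a binding protein and none of a receptor. From day 0 to day 21, 5 were higher (IGFBP3, IGFBP5, IGFBP7, INSR and IGF2R) and 1 lower (IGFBP2), against 23.9% and 26.4% of 9698 genes. Some of these calls rest on 1 library: IGFBP6 was 0.94 higher on day 2 than on day 0, IGFBP2 had a difference of -0.11 from day 3 to day 5, and IGFBP4 of 0.87 from day 7 to day 11 and -0.83 from day 11 to day 21. With scaling by the median of ratios the OSM step of IGFBP4 (-0.99) did not meet the call either. With day 13 in place of day 21, IGFBP5 (0.91), INSR (0.98) and IGF2R (0.79) did not meet the call from day 0, and IGFBP4 (1.35) and IGFBP6 (2.16) did. The median log2 difference of the 9 members was 0.37, 1.10, 0.70 and 0.23 over the 4 steps in order, and that of all 12125 genes was -0.04, -0.03, -0.04 and -0.10. Between days 9 and 11, IGFBP3 was called higher and IGFBP5 lower, against 1.04% and 0.568% of 8444 genes, so both also differed within 1 medium.

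Insulin was absent from the B27 supplement on days 1 to 3 and present in that of days 5 to 13, and the sources used here do not state it for the OSM medium, so the values of days 1 to 3 were set beside those of days 5 to 21, a comparison chosen after the values were seen. IGFBP3 (16 to 40 and then 172 to 6495), IGFBP5 (1 to 21 and then 31 to 1158), IGFBP7 (1 to 13 and then 22 to 386) and IGF2R (422 to 790 and then 854 to 1216) were higher without overlap in the later libraries. IGFBP2 was lower without overlap (322 to 434 and then 139 to 299). The other 4 members overlapped, INSR (78 to 106 and then 76 to 206) and IGF1R among them. Of 10577 genes, 14.9% were higher and 18.5% lower without overlap. Day 0, in mTeSR1 medium, for which insulin is not stated either, was left out of this comparison. On day 0 IGFBP3 (18), IGFBP5 (16), IGFBP7 (2) and IGF2R (494) lay within their ranges of days 1 to 3. IGFBP2 (1736) lay above both of its ranges. Insulin, the growth factors and the day changed together, and their effects cannot be told apart.

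Of the ligands, IGF2 was in the table and IGF1 and INS were not analysed here. IGF2 had values of 3 on day 0, 0 on day 1, 4 on day 2, 7 on day 3, 62 on day 5, 124 on day 7, 2796 on day 9, 6494 on days 11 and 13 and 3861 on day 21. Its Pearson r of log2(value + 1) over the 10 libraries was 0.99 with IGFBP3 and 0.93 with IGFBP7, a description over successive days of a single course, in which many genes move together. The libraries are not stated to keep the strand, and the reads of IGF2 and its antisense neighbour cannot be told apart.

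Proteases, their inhibitors and complex partners set how much IGF the binding proteins release. Of the 10 listed, 8 were found, and the larger value was 50 or more for 2 of them over each of the first 2 steps, 7 over the HGF and KGF step and 8 over the OSM step, so most could not be called early. Of the 8, 1 was called higher and 1 lower over the Activin A step. Over the FGF4 and BMP2 step 0 were higher and 2 lower. Over the HGF and KGF step 6 were higher and 1 lower, and over the OSM step 7 were higher and 0 lower. Of all genes, 11.1%, 13.2%, 9.65% and 8.57% were called higher over the 4 steps in order, and 9.07%, 12.8%, 8.21% and 9.08% lower. The median log2 difference over the 8 was -1.10, 0.33, 2.05 and 2.22 over the 4 steps in order, beside the -0.04, -0.03, -0.04 and -0.10 of all genes. PAPPA, a protease of IGFBP4, was at 3 on day 0 and at 0 on days 2 and 3. It reached 28 on day 7, 228 on day 13 and 134 on day 21. Its log2 difference over the HGF and KGF step was 2.98, and that of IGFBP4 was 1.12. Over the same step 3 binding proteins were called higher and 2 lower, IGFBP5 (-3.35) among the latter. A link of any of them to PAPPA was not tested. STC1, an inhibitor of PAPPA, had its high early and went from 96 on day 0 to 1434 on day 3, 82 on day 7, 18 on day 13 and 209 on day 21, and STC2, another inhibitor, was at 274 on day 0, 34 on day 7 and 421 on day 21. ADAM12, a protease that cuts IGFBP3 and IGFBP5, was at 5 on day 7, 144 on day 13 and 517 on day 21. PLAT, which activates plasminogen, went from 154 to 1490 over the OSM step, and PLG, plasminogen itself, from 62 to 358.

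**Figure D2:**
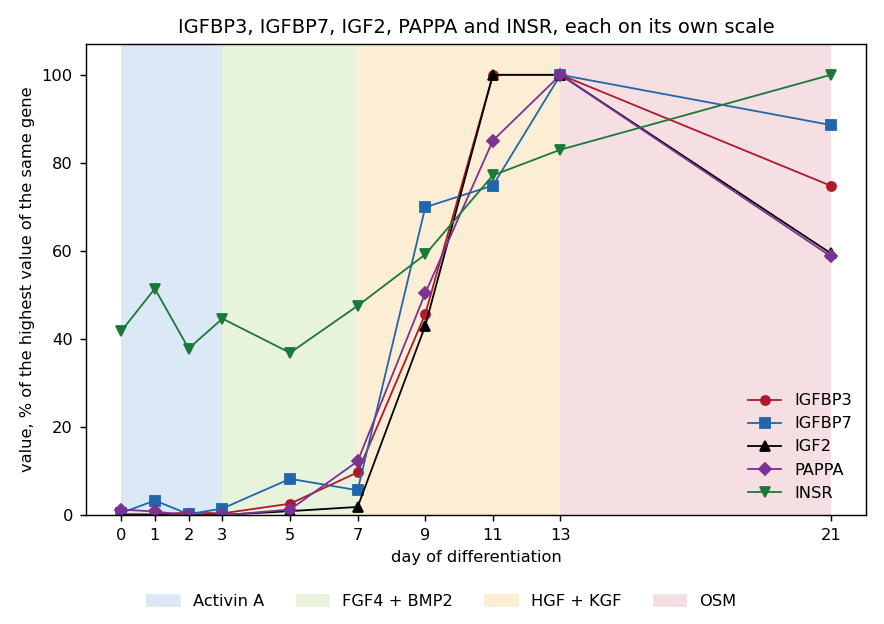
Value of IGFBP3, IGFBP7, IGF2, PAPPA and INSR by day, each as a percentage of its own highest value, 1 point per library, with the background coloured by the step of the protocol. IGFBP3 and IGF2 are highest on days 11 and 13 (6495 and 6494), IGFBP7 and PAPPA on day 13 (386 and 228), and INSR, which starts well above 0, is highest on day 21 (206).

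Genes downstream of the receptors are read against the shares of all genes called over the same steps, which were 11.1% higher and 9.07% lower, 13.2% and 12.8%, 9.65% and 8.21%, and 8.57% and 9.08%. Of 9 substrates and adaptors found, 1 was higher and 1 lower over each of the first 2 steps, 2 were higher over the HGF and KGF step and 1 was lower over the OSM step, with medians of -0.11, 0.22, 0.57 and -0.02 over the 4 steps. IRS1, the docking protein of both receptor kinases, was called in 3 steps: it was at 64 on day 3, 306 on day 7, 839 on day 13 and 367 on day 21. IRS2 stayed between 58 and 142 in the 10 libraries. Of 19 genes of the PI3K, AKT and mTORC1 branch, 1 was higher and 1 lower over the Activin A step, 2 higher and 2 lower over the FGF4 and BMP2 step, 1 higher over the HGF and KGF step and 0 over the OSM step, with medians of 0.07, 0.18, -0.13 and -0.08. PIK3R1, the regulatory subunit of PI3K, went from 102 on day 0 to 48 on day 3 and 211 on day 7. AKT1 (264 to 504) and AKT2 (309 to 412) held narrow ranges. From day 0 to day 21, 0 of the 19 were called higher and 3 lower, against 23.9% and 26.4% of 9698 genes. The 3 were RHEB (224 and 106), MLST8 (186 and 92) and MTOR (395 and 197). Their log2 differences of -1.07, -1.01 and -1.0 lay near the limit of the call.

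Of 16 negative regulators found, 2 were higher and 3 lower over the Activin A step, 1 higher and 1 lower over the FGF4 and BMP2 step, 1 higher and 4 lower over the HGF and KGF step and 3 higher and 0 lower over the OSM step, with medians of -0.08, -0.01, -0.44 and 0.47. The shares of all genes called higher over these steps were 11.1%, 13.2%, 9.65% and 8.57%, and those called lower 9.07%, 12.8%, 8.21% and 9.08%. DDIT4, an inhibitor of mTORC1, was at 462 on day 0, 69 on day 3, 36 on day 7, 125 on day 13 and 668 on day 21. GRB10, an adaptor that damps INSR and IGF1R signalling, was at 458 on day 7, 190 on day 13 and 410 on day 21. ENPP1, which binds and inhibits INSR, was at 137, 9 and 98 on the same days. GRB10 and ENPP1 were thus called lower over the HGF and KGF step and higher over the OSM step, as was IGFBP5.

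FOXO factors are excluded from the nucleus when insulin activates AKT, and their target genes are known to be repressed by insulin. Of 15 FOXO factors and target genes found, 6 were called higher and 1 lower over the FGF4 and BMP2 step, with a median log2 difference of 0.94, and 1 was higher and 1 lower over the Activin A step, with a median of -0.65. Over the HGF and KGF step 2 were higher and 2 lower (median 0.41), and over the OSM step 2 were higher and 1 lower (median -0.22). SESN3 went from 94 on day 3 to 1132 on day 7 and 2438 on day 11, BCL6 from 8 on day 3 to 102 on day 7, and TXNIP, which limits glucose uptake, from 20 on day 3 to 114 on day 7 and 1216 on day 13. FOXO1 itself was at 157 on day 0, 90 on day 3 and 37 on day 21, and FOXO4 at 30 on day 3, 134 on day 7 and 236 on day 11. SESN3, BCL6 and TXNIP were at 317, 22 and 22 on day 5, also in medium with insulin. Medium, growth factors and day changed together, and a link of these genes to insulin was not tested. The location of FOXO proteins was not measured.

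The lysosomal cargo of IGF2R was set beside the receptor. Of 17 genes of mannose 6-phosphate sorting found, 1 was called higher over the Activin A step and 4 over the FGF4 and BMP2 step. Over the HGF and KGF step 1 was higher and over the OSM step 4, and 0 were called lower over any step. The medians of the 17 were 0.09, 0.59, -0.29 and 0.20. Of all genes, 11.1%, 13.2%, 9.65% and 8.57% were called higher over the 4 steps, and 9.07%, 12.8%, 8.21% and 9.08% lower. CTSB, the protease cathepsin B, went from 232 on day 3 to 1216 on day 7, 2434 on day 13 and 3864 on day 21, and CTSL1 from 125 on day 3 to 540 on day 7. HEXA, a lysosomal enzyme that acts on gangliosides, was at 240 on day 13 and 576 on day 21. M6PR, the smaller mannose 6-phosphate receptor, was at 400 on day 0, 248 on day 3 and 269 on day 21, while IGF2R went from 494 to 1216 over the course.

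For each member the 3 genes with the most similar course were taken by the Pearson r of log2(value + 1) over the 10 libraries, among 8471 genes with a range of at least 1. With so many candidates and 10 successive days a high r is common, and it is given as a description. For IGFBP3 they were CREB3L1 (r = 0.99), a transcription factor of collagen-secreting cells, LUM (0.99), a proteoglycan of stromal matrix, and GBF1 (0.99). LUM was at 0 up to day 3, 145 on day 7, 2643 on day 9 and 4866 on day 13. For IGFBP7 they included TP53I13 (0.98) and USP30 (0.98). For IGFBP5 they were NADSYN1 (0.98), GYS1 (0.97), the glycogen synthase of muscle and other tissues, and SLC35C1 (0.97), and for IGFBP6 SPHK2 (0.95), KEL (0.94) and SGTB (0.94). For IGFBP2 they were AC073346.2 (0.98), CMAS (0.97) and SEPT6 (0.97), and for IGFBP4 ELP3 (0.89), PTCD1 (0.89) and FRAS1 (0.87), the lowest r values of any member. For INSR they were PLXNC1 (0.99), CD99L2 (0.98) and ITGA1 (0.98), for IGF1R C22orf29 (0.92), SUOX (0.92) and MAML2 (0.92), and for IGF2R NBPF9 (0.98), which has near-identical relatives between which reads can be split, COPG1 (0.98) and FKBP9 (0.97).

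Markers of other cell types are given beside the values of IGFBP3 and IGFBP7. Of 13 stromal markers 11 were found. Their summed value was 3093 on day 0, 2172 on day 3, 1548 on day 5, 5376 on day 7, 19238 on day 9, 39491 on day 13 and 42127 on day 21. From day 3 to day 7, 5 were called higher and 2 lower, and from day 7 to day 13, 9 higher and 0 lower. Of all genes, 13.2% and 12.8% were called over the first of these steps and 9.65% and 8.21% over the second. Of 12 endothelial markers 8 were found, with sums of 775 on day 3, 626 on day 5, 477 on day 7, 2218 on day 13 and 1499 on day 21 and 2 called lower over the FGF4 and BMP2 step and 6 called higher over the HGF and KGF step. From day 3 to day 5, when IGFBP3 went from 29 to 172, both sums were lower, but the stromal markers were divided. TAGLN (1324 to 545), THY1 (147 to 20) and COL1A2 (390 to 305) were lower. The other stromal markers found were higher, among them COL1A1 (192 to 306), COL3A1 (21 to 111) and LUM (0 to 43). From day 7 to day 13 both sums were higher. Of 12 blood and macrophage markers 6 were found, with sums of 44 on day 7, 3684 on day 13 and 2078 on day 21. The hepatic markers, 10 of 10 found, moved over these days as well, from 195 on day 3 to 34975 on day 7, 52830 on day 13 and 75760 on day 21. In bulk RNA, more cells of a type and more RNA per cell cannot be told apart, and the part of these cell types in the values of the binding proteins was not tested. The sums add values of different genes and follow their highest members: AFP, TTR and COL1A2 were each at 18734 on day 13. In the stromal sum of 3093 on day 0, THY1 was at 2164, and it was at 12 on day 21. IGFBP5 and IGFBP6 were lower on day 13 than on day 7 and the stromal, endothelial and hepatic sums higher, and a link between them was not tested.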

How the data were processed

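The authors made TruSeq RNA libraries of total RNA, sequenced them on a MiSeq, aligned the reads to an ENSEMBL transcriptome with Bowtie2 2.2.0 and RSEM 1.2.17 and normalized for GC content with EDASeq. They deposited 1 table of whole-number scores for 12125 genes. hg19 and mm10 are the builds in the submitters' processing notes. The deposited scores are not counts: library totals ran from 2330948 to 2362740 and the maximum was 18734 in all 10 libraries, so the depth of single libraries is unknown. A shared scale of this kind cannot show a change common to most genes, and the highest genes move between fixed levels.

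Columns were matched to days by name and sample title, and 0 columns of other samples were present. Differences of log2(value + 1) were computed with Python 3.11.15, numpy 2.4.6 and pandas 2.3.3, and plots with matplotlib 3.10.9. With 1 library per day no test was made. The calling code was tested on simulated data. The members and lists were chosen with earlier results of these data known. Named genes are all members, up to 4 called genes with the largest difference per list and step, markers, and the 3 most similar genes per member. Some genes that this rule names are not reported here. Other genes and days were named after their values were seen (IRS2, AKT1, AKT2, M6PR and the later values of named genes). Alternatives were other pseudocounts (0.1 and 5), scalings, limits and libraries.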

Additional observations from a re-analysis of the deposited data

How the results depend on the processing

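The number of the 9 members called was 2 over the Activin A step, 5 over the FGF4 and BMP2 step, 5 over the HGF and KGF step, 3 over the OSM step and 6 from day 0 to day 21. The first was 1 with a larger value of at least 200 and 1 with day 2 in place of day 3, and the second was 3 with a log2 difference of at least 2. All other alternatives gave these counts within 1.5 times. Of 225 recomputed differences of single members, 0 changed the sign of a call, 195 moved by less than the SD of days 9 and 11 and 30 by more. Of the 30, 26 came with another library of the course, 4 with another pseudocount and 0 with another scaling. Most of the 225 changed only the pseudocount or the scaling, so the 195 do not show how far the differences hold between libraries. Scaling by the median of ratios did end the call of IGFBP4 over the OSM step (-0.99 against -1.08), which left 2 calls there. Without day 13, for which label and protocol differ, IGFBP5 had a log2 difference of 4.30 and IGFBP6 of -5.50 from day 11 to day 21. With day 13 in place of day 21, the difference of IGFBP5 from day 0 was 0.91. Scaling by the median of ratios moved the median of all genes from day 0 to day 21 from -0.12 to 0.06. No paired analysis was possible because there is 1 library per day. The depth of single libraries is unknown, and values under 20, as for IGFBP5 up to day 2 and IGFBP7 up to day 3, differ most between libraries.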

Other observations

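The proteins that bind the mRNA of IGF2 took another course than IGF2 itself. IGF2BP1 was at 1021 on day 0, 839 on day 3, 675 on day 13 and 517 on day 21, IGF2BP2 stayed between 268 and 440, and IGF2BP3 was at 598 on day 0, 264 on day 3 and 173 on day 21. IGF2BP3 was called lower over the Activin A step (-1.18), and no other call over a step was made for the 3 genes.

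Of 11 genes of proteins with sequence or name related to the binding proteins, 5 were found. CTGF, a matrix-associated protein of the CCN family, had its highest value on day 1 (2640), against 184 on day 0 and 348 on day 2. WISP1, of the same family, was listed at 0 up to day 5 and was at 34 on day 7, 540 on day 13 and 357 on day 21. IGFBPL1, whose product shares the IGF binding protein domain, was at 40 on day 0, 108 on day 3, 6 on day 7 and 0 on day 21.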
